A study of Mus musculus with 9 samples.

Results

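The 10 genes described here help set the pace of the G1 phase and were followed through 3 culture states of mouse pluripotent cells: the D-type cyclins Ccnd1, Ccnd2 and Ccnd3, the E-type cyclins Ccne1 and Ccne2, the Cip/Kip inhibitors Cdkn1a and Cdkn1b, and the INK4 inhibitors Cdkn2a, Cdkn2b and Cdkn2c. They were chosen by name, as 10 members of a table of 38293 genes, and all 10 were found in it. Cdkn1c, a further Cip/Kip inhibitor, and Cdkn2d, a further INK4 inhibitor, are not among them and are given beside the family sums. The cells were of 1 line, E14, an embryonic stem cell line of the 129/Ola strain, and each state had 3 libraries of poly-A RNA labelled as biological replicates. The mESC-2i, which the labels call naive, grew without serum in N2B27 with the MEK inhibitor PD0325901 at 1 µM, the GSK3 inhibitor CHIR99021 at 3 µM and LIF at 10 ng/mL. Only the titles of the mESC-2i libraries carry the letters LT, which the titles do not explain. The mESC-ser, labelled primed, grew on gelatin with 15% foetal bovine serum and LIF at 10 ng/mL. The EpiLC, epiblast-like cells, were derived from naive cells on fibronectin in N2B27 with activin A at 20 ng/mL, bFGF at 12 ng/mL and 1% KSR. Neither LIF nor the inhibitors are listed for EpiLC medium. No label or method ties the replicates to separate derivations of the line, so p-values measure the spread between these libraries.

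A cell passes from G1 into S phase when cyclin-dependent kinases phosphorylate the retinoblastoma protein and its relatives, which frees the E2F factors to transcribe genes of DNA replication. D-type cyclins activate CDK4 and CDK6 in response to mitogens, E-type cyclins activate CDK2, the INK4 proteins bind CDK4 and CDK6, and the Cip/Kip proteins bind cyclin-CDK2 complexes. Mouse embryonic stem cells are known for a short G1 phase, and this machinery is regulated in large part at the protein level, which RNA counts do not measure.

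The libraries held 7187576 to 16829549 counts. The mitochondrial share was 5.86% to 7.98% in mESC-2i, 3.66% to 4.31% in mESC-ser libraries and 5.996% to 6.52% in EpiLC, and its part in the results was not tested. The 9 pluripotent cell markers summed to 2906 to 3427 counts relative to library size (CPM) in mESC-2i, 3460 to 3535 in mESC-ser libraries and 2946 to 3022 in EpiLC, with no marker at 0 in all libraries of a state and 1 of them, Fgf5, at 0 in at least 1 mESC-2i library. The pluripotent sum joined genes that moved in opposite directions, of which 3 are named after their values were seen. From mESC-2i to EpiLC, Esrrb went from 675 to 14.5 CPM and Nanog from 650 to 61.3, while Dnmt3b went from 61.9 to 1138. In EpiLC, Dnmt3b gave 38.2% of the sum. The numbers of pluripotent markers highest in mESC-2i, mESC-ser and EpiLC were 2, 3 and 4, respectively. Sums of markers of other cell types were lower. The 7 fibroblast markers summed to 44.3 to 50.8 CPM in mESC-2i, 59.0 to 77.9 in mESC-ser libraries and 41.0 to 45.2 in EpiLC, where Lum was at 0. The 6 primitive endoderm markers summed to 11.1 to 11.3, 14.7 to 16.3 and 2.26 to 4.34 CPM, and the 6 trophectoderm markers to 91.2 to 106, 138 to 147 and 63.5 to 69.2 CPM, in the same order, with Elf5 at 0 in EpiLC. The fibroblast and trophectoderm sums rested largely on single genes, named here after their values were seen, and not on the same genes in every state. In mESC-ser, Col1a1 gave 74.9% of the fibroblast sum and Krt18 67.1% of the trophectoderm sum. The leading genes were Col1a1 (47.4%) and Tfap2c (65.9%) in mESC-2i, and Thy1 (69.2%) and Krt18 (87.7%) in EpiLC, respectively. The numbers of markers highest in mESC-2i, mESC-ser and EpiLC were 3, 2 and 2 for fibroblasts, 2, 4 and 0 for primitive endoderm, and 3, 2 and 1 for trophectoderm, respectively. The part of other cells in the results was not tested, and in bulk RNA fewer cells expressing a gene and less RNA per cell cannot be told apart.

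The members followed different courses, and genes of the same role did not all move together. Ccne1 was lowest and Cdkn1a highest in mESC-2i. In mESC-ser and EpiLC, Ccne1 was 4.69-fold and 4.48-fold higher than in mESC-2i, and Cdkn1a, which encodes p21, was 8.23-fold and 7.11-fold lower. Ccnd2 stood apart from both, with 54.4 and 59.4 CPM in mESC-2i and mESC-ser and a 30.6-fold lower level in EpiLC than in mESC-2i. Calls below are from edgeR's quasi-likelihood test, at a Benjamini-Hochberg adjusted p under 0.05 over all genes tested and an absolute log2 fold change over 0.5. Differences are log2 fold changes of the first state named against the second, so that negative values are lower in the first, and are given ± SE, while levels are the mean ± SD of 3 libraries.

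In mESC-ser against mESC-2i, 2 of the 10 members were called higher and 6 lower, where 25.9% and 30.3% of the 15728 genes tested were called. The median log2 fold change of the members was −0.81, and that of all genes tested was −0.04. In EpiLC against mESC-2i, 1 member was called higher and 6 lower, where 32.0% and 37.8% of the 15378 genes tested were, and the median was −0.92 for the members and −0.11 for all genes tested. In EpiLC against mESC-ser, 9 members were tested, since Cdkn2c did not pass the filter on low counts; 3 were called higher and 4 lower, where 35.5% and 37.8% of 15345 genes were, with medians of −0.02 and −0.07. In this fit the shares called in EpiLC against mESC-ser were thus close to those of all genes. The comparisons share libraries in pairs, so they are not independent of each other. The groups did not overlap in CPM for 9 of the 10 members in mESC-ser against mESC-2i, 7 of the 10 in EpiLC against mESC-2i and 8 of the 9 in EpiLC against mESC-ser, and for 70.7%, 81.8% and 85.7% of all genes tested.

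**Figure D1:**
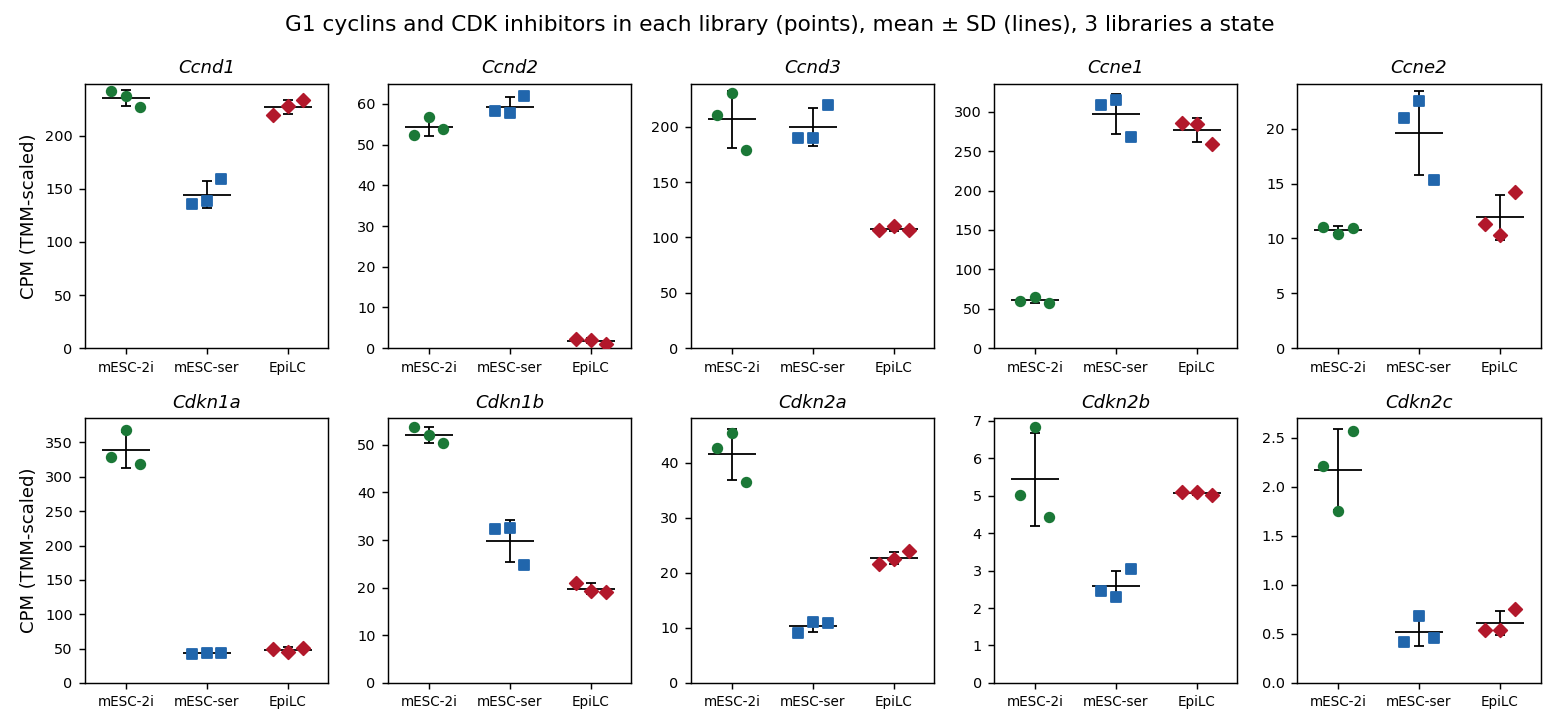
Level of each member in each library, as CPM scaled by TMM on axes that start at 0, with lines at the mean ± SD of the 3 libraries of a state. The mESC-2i libraries are highest for Cdkn1a and lowest for Ccne1, and the EpiLC libraries lie near 0 for Ccnd2.

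A second fit removed, library by library, a smooth trend of the counts over exonic length and GC content. In mESC-ser against mESC-2i it left the counts of members called at 2 higher and 6 lower, where 24.4% and 28.7% of all genes tested were called, and in EpiLC against mESC-2i it gave 1 higher and 7 lower, where 31.1% and 34.4% were. In EpiLC against mESC-ser it left 1 called higher, Ccnd1, and 1 called lower, Ccnd2, where 34.4% and 31.5% of all genes tested were called. The other 5 members called without the correction were not called in that fit, so both values are given below. Whether the trend over length is technical was not tested.

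Among the D-type cyclins, the 3 genes followed 3 different courses. Ccnd1, encoding cyclin D1, lies at chr7:144929931-144939925 on the minus strand of GRCm38. Its CPM were 242, 238 and 227 in mESC-2i, 136, 138 and 159 in the mESC-ser libraries and 219.9, 228 and 234 in EpiLC. The mESC-ser libraries were the lowest, and those of mESC-2i and EpiLC overlapped. Ccnd1 was lower in mESC-ser than in mESC-2i, at −0.76 ± 0.10 (± SE, adjusted p = 8.43e-05 by edgeR), and higher in EpiLC than in mESC-ser by 0.74 ± 0.08 (adjusted p = 3.27e-07). With total counts in place of TMM scaling the latter difference was 0.40 and no longer called. EpiLC and mESC-2i differed by −0.07 ± 0.09 (adjusted p = 0.447), and by 0.21 after the length and GC correction.

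Ccnd2, encoding cyclin D2, lies at chr6:127125162-127152193 on the minus strand. Its CPM were 52.4, 56.9 and 53.9 in mESC-2i and 58.2, 57.9 and 62.0 in mESC-ser. In EpiLC they were 2.28, 1.95 and 1.13, from 9 to 18 counts per library. Both mESC states were thus far above EpiLC, with no overlap. EpiLC differed by −4.94 ± 0.18 against mESC-2i (adjusted p = 4.9e-09) and −4.96 ± 0.16 against mESC-ser (adjusted p = 8.5e-14), and −4.40 and −4.01 after the length and GC correction. Although the mESC-ser libraries all lay above the mESC-2i libraries in CPM, that difference was 0.07 ± 0.10 (adjusted p = 0.543), and it turned to −0.35 with the correction.

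Ccnd3, encoding cyclin D3, spans chr17:47505051-47599691 on the plus strand. Its CPM were 211, 231 and 179 in mESC-2i, 189.6, 189.7 and 219.5 in the mESC-ser libraries and 107, 110.3 and 107 in EpiLC. The EpiLC libraries were the lowest and closest together, and the mESC states overlapped, with a log2 fold change of −0.11 ± 0.12 (adjusted p = 0.435). Ccnd3 was lower in EpiLC by −0.95 ± 0.11 against mESC-2i (adjusted p = 1.11e-05) and by −0.80 ± 0.08 against mESC-ser (adjusted p = 1.22e-07). The first difference was −0.66 and still called with the length and GC correction, and the second was −0.25 and not called.

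Levels of different genes were compared per length, as CPM per kilobase of exonic sequence (RPKM), without the length and GC correction. The length merged all annotated exons of a gene, 8775 bases for Ccnd3 and 4709 for Ccnd1. Shares and ranks of genes therefore depend on the length used. In CPM, Ccnd3 was above Ccnd1 in mESC-ser, at 200 ± 17.3 against 145 ± 12.9. Summed over the D-type cyclins they were 79.4 ± 4.44 RPKM, 59.7 ± 4.94 and 60.7 ± 1.43 in mESC-2i, mESC-ser and EpiLC, respectively (SD, n = 3). Ccnd1 held the largest share of this RPKM sum in every library, 63.1% ± 1.97, 51.3% ± 0.40 and 79.4% ± 0.65 in mESC-2i, mESC-ser and EpiLC, respectively. The share of Ccnd3 was 29.6% ± 2.14, 38.1% ± 0.22 and 20.3% ± 0.54 in the same order, and that of Ccnd2 was 7.29% ± 0.41, 10.6% ± 0.46 and 0.314% ± 0.11. The D-type cyclin RNA of EpiLC was therefore almost wholly that of Ccnd1 and Ccnd3. In mESC-ser, Ccnd2 and Ccnd3 together held nearly as much RPKM as Ccnd1.

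**Figure D2:**
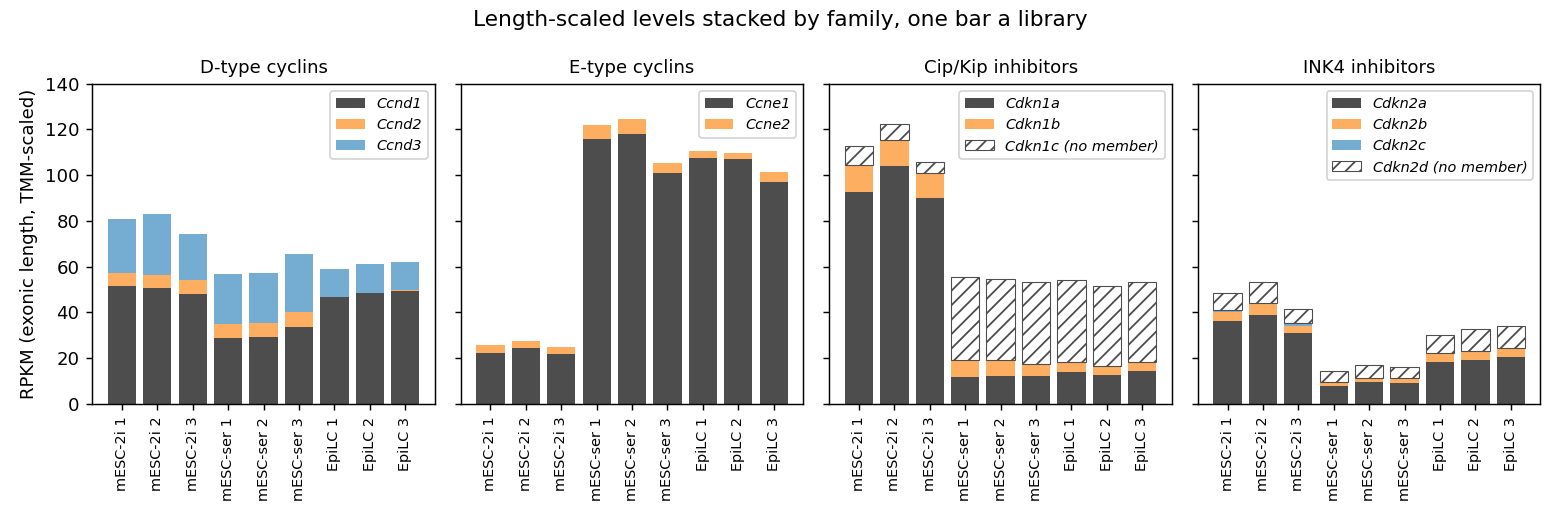
Summed level of each family in each library, in RPKM scaled by TMM, with the members stacked as solid bars and, hatched, the further family genes Cdkn1c and Cdkn2d, which are not members; every panel has the same axis. The E-type cyclins rise from 24.8 to 27.5 RPKM in mESC-2i libraries to 101 or more in the other libraries, and the 2 Cip/Kip members fall from 101 or more to 19.4 or less, while with Cdkn1c the family is at 51.6 or more in every library.

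Of the E-type cyclins, Ccne1 held most of the RNA. Ccne1, encoding cyclin E1, lies at chr7:38097984-38107534 on the minus strand, with no other annotated gene over it. Its CPM were 59.7, 65.3 and 57.6 in mESC-2i, 309, 315 and 268 in the mESC-ser libraries and 286, 284 and 259 in EpiLC. Every mESC-ser and EpiLC library was above every mESC-2i library, and mESC-ser and EpiLC overlapped. Ccne1 was higher by 2.23 ± 0.11 for mESC-ser against mESC-2i (adjusted p = 9.25e-08) and 2.16 ± 0.10 for EpiLC against mESC-2i (adjusted p = 1.67e-08). EpiLC and mESC-ser differed by −0.02 ± 0.09 (adjusted p = 0.835), and by −0.41 with the length and GC correction, which was under the fold threshold.

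The RefSeq promoter of Ccne1 is shown because Ccne1 had the largest rise of the members in both comparisons with mESC-2i. It runs from 250 bases before to 50 bases after the start, at chr7:38107441-38107740 of GRCm38.p6 on the minus strand, written 5′ to 3′ with GC boxes (GGGCGG on either strand) in capitals:
Ccne1 promoter: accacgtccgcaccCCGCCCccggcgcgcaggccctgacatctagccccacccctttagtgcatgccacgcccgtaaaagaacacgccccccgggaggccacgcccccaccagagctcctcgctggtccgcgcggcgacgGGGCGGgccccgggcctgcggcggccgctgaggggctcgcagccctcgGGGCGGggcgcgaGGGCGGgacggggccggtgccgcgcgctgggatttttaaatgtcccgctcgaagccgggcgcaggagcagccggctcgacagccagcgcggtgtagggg

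It held 4 GC boxes, which began at −236, −110, −62 and −49 from the start site, and its GC content was 76.0%. None of the E2F motifs searched (TTTGGCGC, TTTCCCGC, TTTCGCGC and TTTGCCGC, both strands) is in this window, which says only that these letters are absent there. Of the 32851 promoters in the RefSeq table, 35.7% held a GC box and 2.26% one of the E2F motifs. Promoters were found for 7 of the members, 11 in all, of which 9 held a GC box and 1 an E2F motif. No promoter was found for Ccnd1, Ccnd2 and Ccne2. In the promoters printed, no match to one motif overlaps a match to another.

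Ccne2, encoding cyclin E2, lies at chr4:11191351-11204779 on the plus strand. Its CPM were 11.1, 10.4 and 10.9 in mESC-2i, 20.999, 22.6 and 15.3 in the mESC-ser libraries and 11.3, 10.3 and 14.2 in EpiLC. It was thus highest in mESC-ser, where the third library lay close to the EpiLC range. The log2 fold change was 0.80 ± 0.17 for mESC-ser against mESC-2i (adjusted p = 0.00155), and it stayed called at 0.52 with the length and GC correction. EpiLC was lower than mESC-ser by −0.63 ± 0.16 (adjusted p = 0.00173), which the correction brought to −0.30 and under the fold threshold. EpiLC and mESC-2i overlapped, with a difference of 0.12 ± 0.15 (adjusted p = 0.477).

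In RPKM, Ccne1 made up 88.1% ± 0.96, 95.2% ± 0.53 and 96.8% ± 0.71 of the E-type cyclin sum in mESC-2i, mESC-ser and EpiLC, respectively. That sum was 26.0 ± 1.41, 117 ± 10.6 and 107 ± 5.16 RPKM in the same order. The ratio of Ccne1 to Ccnd1 in RPKM was 0.456 ± 0.026, 3.67 ± 0.60 and 2.16 ± 0.18 in mESC-2i, mESC-ser and EpiLC, respectively. The more abundant G1 cyclin transcript was thus Ccnd1 in mESC-2i and Ccne1 in the other states.

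Both Cip/Kip members were highest in mESC-2i. Cdkn1a lies at chr17:29090976-29100727 on the plus strand, and p21, its product, is a well-known effector of p53 in cell cycle arrest. Its CPM were 329, 369 and 319 in mESC-2i, 42.4, 43.4 and 42.8 in the mESC-ser libraries and 49.5, 44.4 and 51.0 in EpiLC. The mESC-2i libraries stood far above the rest, and each EpiLC library was above each mESC-ser library. The log2 fold change was −3.04 ± 0.10 for mESC-ser against mESC-2i (adjusted p = 1.5e-08) and −2.83 ± 0.10 for EpiLC against mESC-2i (adjusted p = 4.9e-09). With the length and GC correction these were −2.79 and −2.80. EpiLC and mESC-ser differed by 0.26 ± 0.09 (adjusted p = 0.0115), under the fold threshold, by 0.02 with the correction and by −0.08 with total counts.

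Both RefSeq promoters of Cdkn1a are shown, since it had the largest fall of the members in mESC-ser. They lie at chr17:29090729-29091028, the upstream start, and chr17:29093519-29093818, the downstream start, on the plus strand of GRCm38.p6, with matches to the p53 half-site and GC boxes in capitals:
Cdkn1a upstream promoter: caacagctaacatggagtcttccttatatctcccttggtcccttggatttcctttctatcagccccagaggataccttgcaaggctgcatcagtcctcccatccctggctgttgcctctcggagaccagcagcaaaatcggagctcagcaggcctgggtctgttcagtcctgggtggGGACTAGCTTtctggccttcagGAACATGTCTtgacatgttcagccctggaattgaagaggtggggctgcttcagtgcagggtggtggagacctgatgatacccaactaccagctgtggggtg
Cdkn1a downstream promoter: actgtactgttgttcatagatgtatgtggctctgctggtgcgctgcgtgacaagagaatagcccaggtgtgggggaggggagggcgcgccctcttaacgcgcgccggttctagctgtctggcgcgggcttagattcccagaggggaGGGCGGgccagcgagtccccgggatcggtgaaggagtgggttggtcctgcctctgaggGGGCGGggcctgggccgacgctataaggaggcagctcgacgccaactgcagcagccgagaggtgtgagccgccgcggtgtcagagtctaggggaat

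The upstream promoter held 2 matches to the p53 half-site, GGACTAGCTT and GAACATGTCT, which began at −73 and −51, and no GC box. Of all promoters in the table, 8.36% held such a half-site, and of the 11 member promoters this was the only one. The downstream promoter held GC boxes at −104 and −46. The counts are per gene and do not separate the starts.

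The RNA of Trp53, which encodes p53, differed by a log2 fold change of 0.03 (adjusted p = 0.834) in mESC-ser and 0.04 (adjusted p = 0.686) in EpiLC, both against mESC-2i. With the length and GC correction these were 0.26 (adjusted p = 0.00859) and 0.19 (adjusted p = 0.0339), both under the fold threshold. Mdm2, a further p53 target, differed by 0.22 (adjusted p = 0.125) in mESC-ser and was lower by −0.60 (adjusted p = 0.000578) in EpiLC, which was −0.31 and not called after the length and GC correction. These genes are in the list of regulators below, and were singled out after their values were seen. The protein p53 was not measured, and its part in the Cdkn1a differences was not tested.

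Cdkn1b, encoding p27, lies at chr6:134920401-134925513 on the plus strand. Its CPM were 53.8, 52.1 and 50.4 in mESC-2i, 32.3, 32.6 and 24.8 in the mESC-ser libraries and 21.1, 19.2 and 19.1 in EpiLC. The 3 states did not overlap and stood in this order. Cdkn1b was lower than in mESC-2i by a log2 fold change of −0.86 ± 0.13 in mESC-ser (adjusted p = 0.000179) and −1.42 ± 0.10 in EpiLC (adjusted p = 4.57e-07). The step from mESC-ser to EpiLC was −0.50 ± 0.12 (adjusted p = 0.00107). That call was lost with the length and GC correction at −0.10, with DESeq2 and edgeR's RLE scaling at −0.48, and with any one of 4 libraries left out: EpiLC replicate 2 or 3 at −0.48 and −0.47, and mESC-ser replicate 1 or 2 at −0.45.

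In RPKM, the sum of Cdkn1a and Cdkn1b was 107 ± 7.46, 18.6 ± 0.99 and 17.9 ± 1.07 in mESC-2i, mESC-ser and EpiLC, respectively. Cdkn1a gave 89.3% ± 0.72, 64.9% ± 3.46 and 75.7% ± 1.44 of it, in the same order. These sums overlapped between mESC-ser and EpiLC libraries. With Cdkn1c, which was at 6.72 ± 1.81, 35.9 ± 0.66 and 35.1 ± 0.64 RPKM, the Cip/Kip sum was 114 ± 8.21, 54.6 ± 1.05 and 53.035 ± 1.39 RPKM. Of that sum Cdkn1a gave 84.0% ± 1.69, 22.1% ± 0.57 and 25.6% ± 1.41, and Cdkn1c 5.90% ± 1.48, 65.9% ± 1.37 and 66.2% ± 1.31. Cdkn1a was thus the most abundant Cip/Kip transcript in mESC-2i, and Cdkn1c in the other states.

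**Figure D3:**
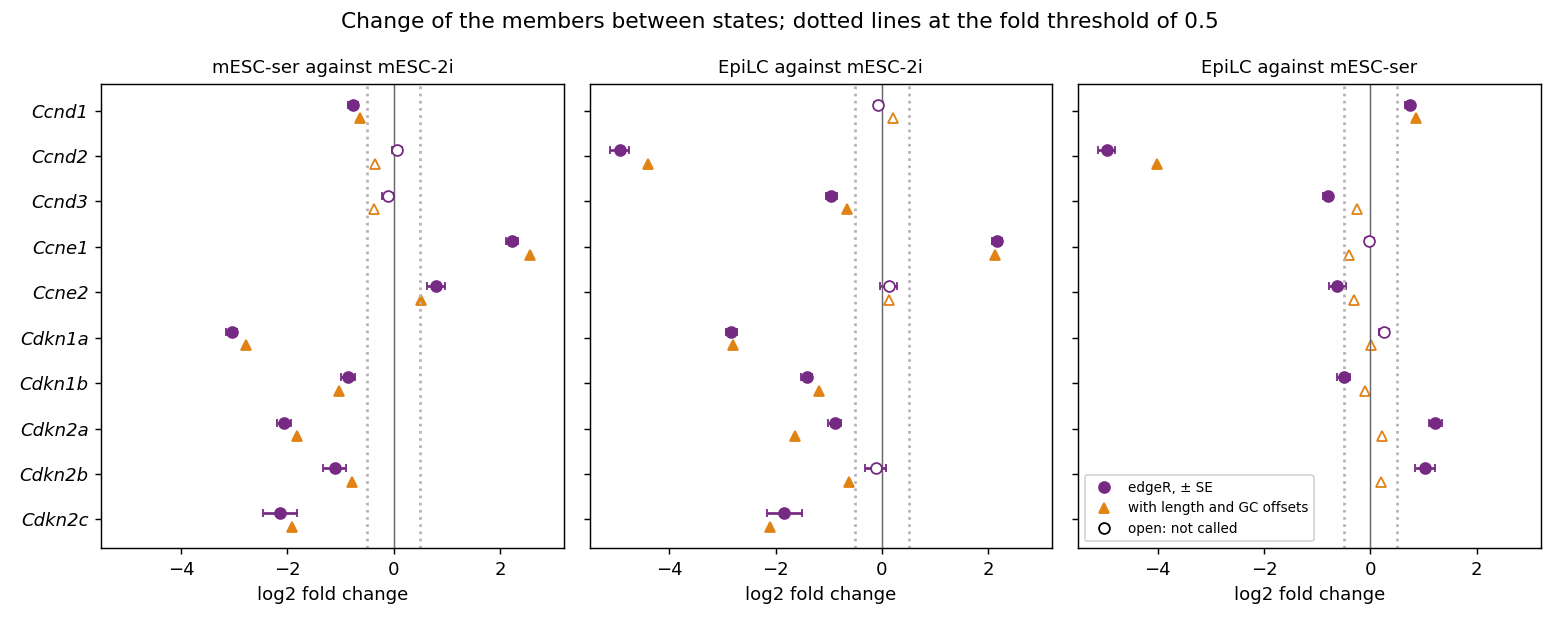
Log2 fold change of each member in the 3 comparisons, with edgeR's value ± SE (circles) and the value after the length and GC correction (triangles); filled symbols are called. The symbols lie close together for Ccne1 and Cdkn1a against mESC-2i, and the triangles of Cdkn2a and Cdkn2b lie near 0.2 in EpiLC against mESC-ser, where the circles are at 1.22 and 1.03. Cdkn2c was not tested in that comparison.

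The 3 INK4 members were all lower in mESC-ser than in mESC-2i. Cdkn2a is annotated at chr4:89274471-89294653 on the minus strand and makes 2 unrelated proteins from separate first exons, the CDK4 and CDK6 inhibitor p16Ink4a and the MDM2 inhibitor p19Arf. The gene counts merge the transcripts of both. Cdkn2a CPM were 42.7, 45.4 and 36.4 in mESC-2i, 9.03, 11.1 and 10.8 in the mESC-ser libraries and 21.6, 22.5 and 23.9 in EpiLC. No state overlapped another, with EpiLC between the other two. Cdkn2a differed by −2.07 ± 0.14 for mESC-ser against mESC-2i (adjusted p = 6.57e-07) and −0.89 ± 0.12 for EpiLC against mESC-2i (adjusted p = 4.08e-05). With the length and GC correction these were −1.81 and −1.65. EpiLC was higher than mESC-ser by 1.22 ± 0.12 (adjusted p = 5.27e-08), and by 0.21 with the correction (adjusted p = 0.0757), no longer called. The exonic length of Cdkn2a, 1172 bases, is the shortest of the members.

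Both promoters of Cdkn2a are shown because its counts cannot be assigned to either product. The upstream start, of p19Arf, has its promoter at chr4:89294570-89294869, and the downstream start, of p16Ink4a, at chr4:89282143-89282442, both on the minus strand of GRCm38.p6, with the E2F motif and GC boxes in capitals:
Cdkn2a upstream promoter: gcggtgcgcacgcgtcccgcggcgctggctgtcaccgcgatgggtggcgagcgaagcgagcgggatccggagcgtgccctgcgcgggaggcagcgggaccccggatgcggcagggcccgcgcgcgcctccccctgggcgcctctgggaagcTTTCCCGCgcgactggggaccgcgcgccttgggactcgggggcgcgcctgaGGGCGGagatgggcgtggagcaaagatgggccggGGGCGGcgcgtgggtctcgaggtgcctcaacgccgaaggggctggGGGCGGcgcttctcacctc
Cdkn2a downstream promoter: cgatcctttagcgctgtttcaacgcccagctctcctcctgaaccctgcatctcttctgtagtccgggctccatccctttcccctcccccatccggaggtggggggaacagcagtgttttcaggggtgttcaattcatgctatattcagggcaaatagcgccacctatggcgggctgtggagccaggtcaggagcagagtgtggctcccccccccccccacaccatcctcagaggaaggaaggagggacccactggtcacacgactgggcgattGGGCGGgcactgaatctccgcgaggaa

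The upstream promoter held the E2F motif TTTCCCGC, which began at −99, and GC boxes at −48, −14 and 32, with a GC content of 77.0%. The downstream promoter held 1 GC box at 24 and no E2F motif, with a GC content of 60.3%. The upstream promoter of Cdkn2a was the only member promoter with one of these E2F motifs.

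Cdkn2b, encoding p15, is the neighbour of Cdkn2a at chr4:89306299-89311039 on the minus strand. Its CPM were 5.03, 6.84 and 4.44 in mESC-2i, 2.45, 2.29 and 3.04 in the mESC-ser libraries and 5.10, 5.10 and 5.03 in EpiLC. Only mESC-ser stood apart, below the other two. Its difference was −1.11 ± 0.22 for mESC-ser against mESC-2i (adjusted p = 0.00126) and 1.03 ± 0.19 for EpiLC against mESC-ser (adjusted p = 0.000103). The length and GC correction left the former called at −0.78 and brought the latter to 0.20, not called. EpiLC and mESC-2i differed by −0.12 ± 0.20 (adjusted p = 0.603), by −0.62 and called lower with the correction (adjusted p = 0.00799), and by 0.13 without mESC-2i replicate 2.

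Cdkn2c, encoding p18, lies at chr4:109660876-109667189 on the minus strand and had few counts, 18 to 33 counts per library in mESC-2i, 6 to 8 in mESC-ser and 4 to 6 in EpiLC. Its CPM were 2.21, 1.75 and 2.57 in mESC-2i, 0.42, 0.68 and 0.46 in the mESC-ser libraries and 0.54, 0.54 and 0.75 in EpiLC. The mESC-2i libraries were above all the others, which overlapped. The log2 fold change was −2.14 ± 0.32 for mESC-ser against mESC-2i (adjusted p = 0.000174) and −1.83 ± 0.34 for EpiLC against mESC-2i (adjusted p = 0.000476).

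The sum of the 3 INK4 members was 40.2 ± 4.61 RPKM, 10.9 ± 1.07 and 23.2 ± 0.99 in mESC-2i, mESC-ser and EpiLC, respectively, of which Cdkn2a gave 88.3% ± 0.85, 81.0% ± 2.02 and 83.3% ± 0.65. All 5 cyclins together came to 105 ± 5.68, 177 ± 5.78 and 168 ± 4.20 RPKM, and the 5 inhibitor members to 147 ± 11.8, 29.5 ± 1.11 and 41.1 ± 1.56 RPKM. The ratio of cyclin to inhibitor RPKM was thus 0.718 ± 0.023, 6.005 ± 0.20 and 4.09 ± 0.25 in mESC-2i, mESC-ser and EpiLC, respectively, with no overlap between states. It is a ratio of transcript levels summed over the 10 members and is given as a description. The sums and the ratio used levels without the length and GC correction. Cdkn2a, the largest part of the INK4 sum, was higher in EpiLC than in mESC-ser by 1.22. With the correction that difference was 0.21 and not called. The order of mESC-ser and EpiLC was not tested with the correction. The INK4 and inhibitor sums count Cdkn2a whole, so they include p19Arf transcripts, which do not encode a CDK inhibitor, in an unknown part. Cdkn2d, which encodes p19Ink4d and is named here after its values were seen, was at 7.82 ± 1.34, 5.11 ± 0.54 and 9.22 ± 1.19 RPKM, and with it Cdkn2a gave 73.9% ± 1.29, 55.0% ± 1.94 and 59.6% ± 1.5045 of the INK4 sum. With Cdkn1c and Cdkn2d among the inhibitors the ratio was 0.654 ± 0.023, 2.51 ± 0.055 and 1.97 ± 0.084, which kept the order of the states and was below the value over the members alone in each of them.

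Ranked by RPKM in mESC-2i, Cdkn1a was first at 95.4 ± 7.39, before Ccnd1 at 50.1 ± 1.64 and Cdkn2a at 35.4 ± 3.96. Ccnd3 at 23.6 ± 2.95 and Ccne1 at 22.9 ± 1.49 followed with overlapping libraries, and then Cdkn1b, Ccnd2, Cdkn2b, Ccne2 and Cdkn2c, from 11.4 down to 0.81. In mESC-ser, Ccne1 was first at 112 ± 9.48, before Ccnd1 at 30.7 ± 2.74, Ccnd3 at 22.7 ± 1.97, Cdkn1a at 12.1 ± 0.13 and Cdkn2a at 8.80 ± 0.96. Cdkn1b, Ccnd2 and Ccne2, at 6.57, 6.31 and 5.62, overlapped from one to the next, and Cdkn2b and Cdkn2c came last at 1.87 and 0.19. In EpiLC, Ccne1 at 104 ± 5.72, Ccnd1 at 48.2 ± 1.46 and Cdkn2a at 19.3 ± 0.98 led. Cdkn1a at 13.6 ± 0.98 overlapped Ccnd3 at 12.3 ± 0.22, Cdkn1b was at 4.35, Cdkn2b at 3.65 overlapped Ccne2 at 3.41, and Cdkn2c at 0.23 overlapped Ccnd2 at 0.19. Cdkn1a thus moved from the first place in mESC-2i to the fourth in both other states, and Ccne1 from the fifth to the first.

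The other genes of the pathway were taken as lists. Of all genes tested, 25.9% were called higher and 30.3% lower in mESC-ser against mESC-2i. The shares were 32.0% and 37.8% in EpiLC against mESC-2i, and 35.5% and 37.8% in EpiLC against mESC-ser. Some of the list counts below were near or under these shares. Among 7 G1 kinases and their partners, 3 were called higher and 3 lower in mESC-ser against mESC-2i, 4 and 1 for EpiLC against mESC-2i, and 3 and 2 when EpiLC were set against mESC-ser. With the length and GC correction the counts were 2 and 1, 5 and 1, and 3 and 1, in the same order. Cdkn1c, which encodes p57, the remaining Cip/Kip inhibitor, moved against Cdkn1a and Cdkn1b: it rose from 13.7 ± 3.70 CPM in mESC-2i to 73.3 ± 1.34 in mESC-ser and 71.6 ± 1.31 in EpiLC, log2 fold changes of 2.38 ± 0.17 each (adjusted p = 1.34e-06 and 4.51e-07). Cdk2, the kinase of E-type cyclins, fell from 131 ± 11.1 CPM to 65.8 ± 0.71 and 53.4 ± 3.69, by −1.05 ± 0.10 (adjusted p = 8.36e-06) and −1.31 ± 0.10 (adjusted p = 7.94e-07). It thus moved opposite to its partner Ccne1 in both states. Cdk4, a kinase of D-type cyclins, was higher in EpiLC at 1087 ± 16.2 CPM than in mESC-ser at 429 ± 61.0, by 1.43 ± 0.10 (adjusted p = 6.55e-10). Cdk6, the other kinase of D-type cyclins, was lower in EpiLC than in mESC-ser by −0.63 ± 0.10 (adjusted p = 2.24e-05), and turned to 0.71 and called higher with the length and GC correction.

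Of the 13 pocket proteins and E2F factors, 7 were called higher and 2 lower in mESC-ser against mESC-2i, with a list median of 0.52 where all genes tested had −0.04. The length and GC correction gave 7 higher and 4 lower. E2f8, an atypical E2F that represses transcription, rose most, from 12.8 ± 2.24 to 119 ± 9.79 CPM (3.16 ± 0.15, adjusted p = 6.95e-08), and E2f1 fell from 55.2 ± 11.3 to 34.3 ± 3.61 CPM (−0.75 ± 0.15, adjusted p = 0.0013). In EpiLC against mESC-2i, 3 were higher and 5 lower, or 4 and 4 after the correction. E2f8 rose to 33.9 ± 2.67 CPM (1.39 ± 0.15, adjusted p = 8.54e-06), and Rbl2, encoding the pocket protein p130, fell from 12.1 ± 3.47 to 2.24 ± 0.060 CPM (−2.46 ± 0.25, adjusted p = 5.83e-06). In EpiLC against mESC-ser, 2 were higher and 9 lower, or 2 and 5 after the length and GC correction. Tfdp1, a dimer partner of E2F factors, fell from 148 ± 6.76 to 24.7 ± 2.21 CPM (−2.50 ± 0.09, adjusted p = 3.77e-13). E2f4 was higher by 0.72 ± 0.08 (adjusted p = 2.25e-07), a call lost at 0.19 with the correction.

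Of the 12 genes for turnover of cyclins and inhibitors, 3 were called higher and 2 lower in mESC-ser against mESC-2i, 6 and 4 for EpiLC against mESC-2i, and 3 and 4 when EpiLC were set against mESC-ser. With the length and GC correction the counts were 5 and 2, 5 and 2, and 3 and 3, in the same order. Skp2, the ubiquitin ligase subunit that recognises p27, rose from 37.4 ± 3.53 CPM in mESC-2i to 84.5 ± 13.4 in mESC-ser (1.12 ± 0.14, adjusted p = 6e-05), and Usp2, a deubiquitinase of cyclin D1, fell from 9.99 ± 1.23 to 5.15 ± 0.40 CPM (−1.005 ± 0.16, adjusted p = 0.000292). Cks1b, the cofactor of SKP2 in the recognition of p27, was at 457 ± 12.5 CPM in EpiLC, above 69.4 ± 12.0 in mESC-2i (2.70 ± 0.13, adjusted p = 2.64e-08) and 94.5 ± 12.5 in mESC-ser (2.36 ± 0.10, adjusted p = 1.28e-12). Cul4a, a cullin scaffold, was lower in EpiLC than in mESC-2i by −1.0003 ± 0.12 (adjusted p = 2.08e-05). Fbxw7, which recognises cyclin E, was lower in EpiLC than in mESC-ser by −1.20 ± 0.10 (adjusted p = 5.02e-09), and by −0.49 with the correction, not called.

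Of the 21 E2F target genes of S phase, 2 were called higher and 1 lower in mESC-ser against mESC-2i, with a list median of 0.16. Cdc6, a loader of the replicative helicase, rose from 39.4 ± 1.97 to 77.4 ± 3.51 CPM (0.92 ± 0.10, adjusted p = 2.33e-05), and Tk1, thymidine kinase, fell from 60.2 ± 8.14 to 31.9 ± 2.79 CPM (−0.97 ± 0.12, adjusted p = 6.05e-05). In EpiLC, 10 were higher and 1 lower than in mESC-2i with a median of 0.50, and 7 were higher and 4 lower than in mESC-ser with a median of 0.23. Tyms, thymidylate synthase, rose from 47.0 ± 5.90 CPM in mESC-2i to 216 ± 9.54 in EpiLC (2.18 ± 0.11, adjusted p = 3.47e-08). Tk1 reached 162 ± 10.3 CPM in EpiLC, above mESC-ser by 2.44 ± 0.09 (adjusted p = 5.48e-13). Orc1, a subunit of the origin recognition complex, was lower in EpiLC by −0.91 ± 0.10 against mESC-2i (adjusted p = 1.32e-05) and −1.02 ± 0.10 against mESC-ser (adjusted p = 9.39e-08). After the length and GC correction 15 of the 21 were called higher in EpiLC than in mESC-2i, where 31.1% of all genes tested were, and 1 lower. The corrected counts were 3 higher and 1 lower in mESC-ser against mESC-2i, and 9 and 1 in EpiLC against mESC-ser.

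Of the 6 cyclins of S, G2 and M phase, Ccna1 and Ccnb3 had too few counts to be tested. Of the other 4, 2 were called higher and none lower in each comparison with mESC-2i, and none were called in EpiLC against mESC-ser, where all 4 were within −0.09 and 0.27. With the length and GC correction 2 of these were called higher and 1 lower in EpiLC against mESC-ser. In each comparison with mESC-2i it gave 3 higher and none lower. Ccna2, cyclin A2, rose from 155 ± 11.8 to 277 ± 1.47 CPM in mESC-ser (0.78 ± 0.10, adjusted p = 6.01e-05), and Ccnb1, cyclin B1, from 129 ± 12.2 to 235 ± 7.48 CPM in EpiLC (0.85 ± 0.10, adjusted p = 1.4e-05).

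Of the 14 known regulators of the member genes, 5 were called higher and 3 lower in mESC-ser against mESC-2i, 3 and 7 for EpiLC against mESC-2i, and 1 and 10 when EpiLC were set against mESC-ser. With the length and GC correction the counts were 5 and 4, 3 and 6, and 2 and 7, in the same order. Myc, a transcription factor known to repress Cdkn1a and Cdkn2b, rose from 8.16 ± 0.86 CPM in mESC-2i to 133 ± 9.02 in mESC-ser (3.98 ± 0.13, adjusted p = 1.29e-08) and 51.9 ± 0.37 in EpiLC (2.66 ± 0.12, adjusted p = 1.88e-08). Bmi1, a Polycomb protein known to repress Cdkn2a, fell from 23.7 ± 2.40 to 8.67 ± 0.57 CPM in mESC-ser (−1.51 ± 0.14, adjusted p = 5.63e-06). Klf4, a naive pluripotency factor known to activate Cdkn1a, was at 1.26 ± 0.61 CPM in EpiLC, lower by −8.23 ± 0.20 than in mESC-2i (adjusted p = 5.42e-10) and by −6.86 ± 0.18 than in mESC-ser (adjusted p = 2.31e-14). Lef1, a nuclear partner of beta-catenin, was higher in EpiLC than in mESC-ser by 0.68 ± 0.10 (adjusted p = 5.31e-06). Whether any of these acted on the members was not tested.

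**Figure D4:**
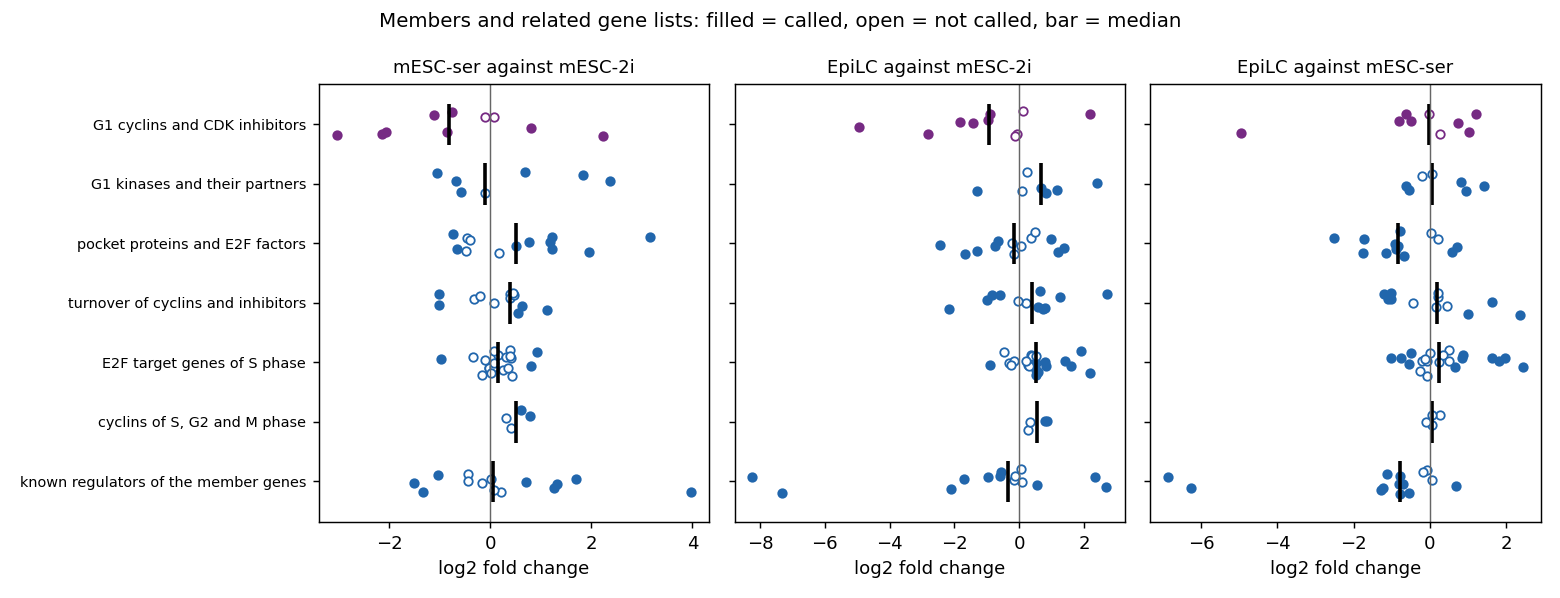
Log2 fold change of every tested member (top row, purple) and of every tested gene of the 6 related lists (blue), in edgeR's fit without length correction; filled points are called, bars are list medians, and the panels have different axes. In mESC-ser against mESC-2i the members run from −3.04 to 2.23 and the E2F target genes of S phase from −0.97 to 0.92, and Klf4 lies at the far left of the lowest row in both EpiLC panels.

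For the members whose mean log2 CPM spanned more than 2 between states, the genes with the most similar pattern over the 9 libraries were sought among 16187 genes, by the root mean square difference of centred log2 CPM. For Ccnd2, which spanned 4.97, they were Islr2 (0.075), Socs3 (0.20) and Prkar2a (0.27). For Ccne1, which spanned 2.28, they were Tnfsf12 (0.098), Fam83g (0.13) and Dppa2 (0.17). For Cdkn1a, which spanned 2.98, they were Fam213a (0.094), Nags (0.11) and Neurod4 (0.13). The points of each pattern share libraries, so the likeness is a description.

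Some member counts can hold reads of another gene. The library kit does not mark strand, and exons of Ccnd1, Ccnd2, Ccnd3, Ccne2 and Cdkn1a overlap exons of a gene on the opposite strand over 1100, 740, 361, 609 and 273 bases. Ccne1, Cdkn1b and the 3 INK4 members have no such overlap. For Cdkn1c the overlap was 625 bases.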

How the data were processed

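Total RNA was poly-A enriched, made into TruSeq v2 libraries and sequenced as single-end reads. Per the submitters' processing notes, reads were checked with FastQC 0.11.0, trimmed with Trim Galore 0.6.6, aligned with HISAT2 2.2.1 to mm10 and counted with Subread 2.0.1. The authors deposited raw counts per Ensembl gene, with no normalization. The annotation release, strand and multimapper settings are not given in the sources used here. Columns were matched to samples by name, the serum columns through initials (S and L) that fit only the serum titles.

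Symbols, positions and exonic lengths came from GENCODE M21 (GRCm38, the assembly of mm10), which matched 36429 of 38293 identifiers (95.1%). Promoters came from RefSeq (GRCm38.p6). For each comparison the 6 libraries concerned were fitted in edgeR 4.0.16 (R 4.3.3, limma 3.58.1), using filterByExpr, TMM and the quasi-likelihood F-test. SEs came from the F statistic. CPM were scaled by TMM over all 9 libraries, and likeness used log2 CPM with a prior count of 2. The length and GC correction used natural splines of 5 degrees of freedom as offsets. The alternatives were scaling by RLE, upper quartile or total counts, other filters and thresholds, DESeq2 1.42.0, 1 fit over all libraries, a replicate block and leaving out each library. Family sums with Cdkn1c and Cdkn2d were added after seeing the data. Scripts were tested on simulated data. Replicates differed by a chi-square of 1.61 to 28.3 per degree of freedom, where counting error alone gives about 1, so none were merged. Counting error was a large part of the difference for the closest pair, mESC-ser replicates 1 and 2. Cdkn2c and EpiLC Ccnd2 rest on the fewest counts.

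Members and lists were chosen with earlier results of these data known. All members are described; from each list and comparison the called gene with the largest rise and the one with the largest fall are named, if the groups did not overlap and the higher group averaged at least 100 counts. Deviations of libraries with the same replicate number correlated at 0.129 to 0.345 between mESC-ser and mESC-2i, and those with different numbers at −0.278 to 0.146. Every same-number value was over 0.1, so these were taken as paired from the data, though the ranges overlap and the labels do not say what the number marks. The values were 0.020 to 0.112 between EpiLC and mESC-2i and 0.016 to 0.033 between EpiLC and mESC-ser, which were not taken as paired. The main fit used no pairing in any comparison, so the SEs and adjusted p-values reported from it are unpaired. Pairing entered only through the alternative fits with a replicate block.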

Additional observations from a re-analysis of the deposited data

How the results depend on the processing

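Counts of members called kept within 1.5 times of the reported count in 102 of 108 combinations of comparison, direction and setting. At an absolute log2 fold change over 1, 1 member was called higher in mESC-ser against mESC-2i and 1 lower in EpiLC against mESC-ser. With the length and GC correction, without or with the replicate block, 1 was called higher and 1 lower in EpiLC against mESC-ser. With each library left out in turn, mESC-ser against mESC-2i kept counts of 2 higher and 6 lower, EpiLC against mESC-2i of 1 and 6, and EpiLC against mESC-ser of 3 higher and 3 to 4 lower.

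Of the members' log2 fold changes, 13 changed sign, all of differences not called. In mESC-ser against mESC-2i, Ccnd2 turned to −0.35 with the length and GC correction, without and with the replicate block. In EpiLC against mESC-2i, Ccnd1 turned to 0.21 with it, without and with the block, and Ccne2 to −0.21 with total counts. With each library left out in turn Ccne2 ranged from −0.0092 (without EpiLC replicate 3) to 0.229, and Cdkn2b from −0.27 to 0.13 (without mESC-2i replicate 2). In EpiLC against mESC-ser, Ccne1 turned to 0.0076 with DESeq2 and with RLE scaling and ranged from −0.0888 to 0.0326 with a library left out (0.0044 to 0.0326 where this reversed it), and Cdkn1a turned to −0.084 with total counts. The replicate block alone changed no call of a member. The cause of these changes was not tested.

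Total counts moved the median of all genes by −0.34 in both EpiLC comparisons, and the share of calls that were higher from 45.9% to 33.7% against mESC-2i and from 48.4% to 37.4% against mESC-ser. The length and GC correction moved that median by 0.10 and 0.13. The filter of 10 counts in every library removed Cdkn2c and, in EpiLC comparisons, Ccnd2, so they have no value there. Depth limits Cdkn2c most. With Cdkn1c and Cdkn2d counted among the inhibitors, chosen after seeing the data, the ratio of cyclin to inhibitor RPKM moved by over 1.5 times in mESC-ser, to 2.51, and in EpiLC, to 1.97.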
